A study of Mus musculus with 9 samples.

Results

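The genes described here are 10 early response genes: the FOS family (Fos, Fosb, Fosl1 and Fosl2), the JUN family (Jun, Junb and Jund), Egr1, Maff and Ier3. They were chosen by name, as members of the AP-1, EGR and MAF groups of transcription factors and the early response gene Ier3, and all 10 were among the 55471 genes listed. RNA was sequenced from 9 cultures of primary mouse articular chondrocytes, which build cartilage matrix, isolated from the knees of wild-type mice on postnatal day 5. The study asked how OSCAR, a collagen receptor, changes chondrocytes and whether 5-ASA (mesalamine, an anti-inflammatory drug) alters that change. There were 3 cultures in each of 3 groups. Control cultures are called Control in the sample annotations, and by the study's methods they were infected with a control adenovirus, Ad-Control. Ad-OSCAR cultures received an adenovirus that carries Oscar, and Ad-OSCAR+5-ASA cultures received that virus and then 10 µM 5-ASA. According to the methods, the plates of all groups were coated with COLpep, a collagen peptide that binds OSCAR, and no group received IL-1β. Cultures of all groups were grown in medium with 10% serum. The annotations give 3 days of culture, 2 h of infection at 400 MOI and 36 h before the drug, whereas the methods give 2 days, 800 MOI and an additional 24 h with or without the drug. Thus Oscar came from a viral vector, its reads include those of the vector, and the RNA was taken a day or more after infection. The cultures are numbered 1 to 3 in each group, and since nothing says that they came from separate animals, p-values measure only the spread between these cultures.

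AP-1 is a pair of basic leucine zipper proteins that binds DNA as a dimer. FOS proteins need a JUN partner, whereas JUN proteins can also pair with each other, and FOSL1 and FOSL2 lack the strong activating domain found in FOS and FOSB. Many of these genes are immediate early genes: a mitogen or cytokine switches them on within minutes, without new protein synthesis, mainly through MAP kinases acting on SRF and its ELK partners, and the first wave of Fos and Egr1 mRNA normally fades fast. In cartilage, AP-1 is known for driving matrix metalloproteinases and inflammatory mediators.

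Total estimated counts ranged from 19733448 to 28192740 per culture, and 15362 genes, including all 10 described here, passed the filter on low counts. Oscar had 3 to 4 counts in Control cultures, 173445 to 187278 in Ad-OSCAR cultures and 80766 to 94199 in treated cultures. The summed level of 10 chondrocyte markers was 38616 to 44331 CPM (counts scaled to library size, after TMM normalisation) in Control cultures, 2373 to 2704 in Ad-OSCAR cultures and 2833 to 3286 in treated cultures. Markers of leukocytes and macrophages (9 genes) summed to 15.9 to 18.3, 35.5 to 36.2 and 29.4 to 30.8 CPM in the same order, mostly Cd14, Cd68 and Lyz2, while Ptprc, Adgre1, Itgam and Tyrobp had 0 to 3 counts in every culture. Those of endothelium (6 genes) summed to 0.581 to 1.23, 4.51 to 5.53 and 2.23 to 2.73 CPM in that order. Those of fibroblasts (8 genes) summed to 19796 to 20839, 14152 to 15087 and 17260 to 18416 CPM. The part of these shifts in the results below was not tested, and in RNA from whole cultures fewer cells of a type and less RNA per cell cannot be told apart.

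To show the control regions of the genes that moved furthest in each direction, the 250 bases before the RefSeq transcription start (GRCm38.p6) are given for Ier3 and Maff, which rose most after OSCAR overexpression, and for Fos and Jun, which fell. Of the 10 genes, 8 had an entry in the promoter table. Capitals mark matches to a searched motif. The windows lie at chr17:35821463-35821712 (plus strand, Ier3), chr15:79346371-79346620 (plus strand, Maff), chr12:85473640-85473889 (plus strand, Fos) and chr4:95052223-95052472 (minus strand, Jun).
Ier3: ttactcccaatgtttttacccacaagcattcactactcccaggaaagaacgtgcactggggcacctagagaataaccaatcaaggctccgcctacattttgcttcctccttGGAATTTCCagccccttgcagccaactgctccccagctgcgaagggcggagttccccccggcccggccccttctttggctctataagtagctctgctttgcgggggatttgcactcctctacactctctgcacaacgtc
Maff: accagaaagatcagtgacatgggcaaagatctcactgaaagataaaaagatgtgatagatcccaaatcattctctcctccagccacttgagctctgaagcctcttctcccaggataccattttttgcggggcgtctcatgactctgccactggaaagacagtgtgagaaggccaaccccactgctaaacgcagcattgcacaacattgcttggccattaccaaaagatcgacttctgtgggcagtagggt
Fos: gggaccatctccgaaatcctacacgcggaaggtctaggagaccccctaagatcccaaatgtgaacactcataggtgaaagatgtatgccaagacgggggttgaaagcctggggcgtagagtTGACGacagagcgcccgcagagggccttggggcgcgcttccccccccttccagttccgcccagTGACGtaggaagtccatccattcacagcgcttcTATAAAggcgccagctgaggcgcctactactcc
Jun: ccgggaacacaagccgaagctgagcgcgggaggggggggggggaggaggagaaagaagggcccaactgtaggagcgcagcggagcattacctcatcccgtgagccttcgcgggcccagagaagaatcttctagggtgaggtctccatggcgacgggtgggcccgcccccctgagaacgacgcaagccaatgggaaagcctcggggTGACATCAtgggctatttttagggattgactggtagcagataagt
The Ier3 window runs 29 bases past the GENCODE start of the gene. The Fos window holds a TATAAA box 33 to 28 bases before the start and the CRE half-site TGACG at 2 places, 129 to 125 and 66 to 62 bases before it. The Jun window holds TGACATCA, a match to TGACNTCA, 45 to 38 bases before the start. In the Ier3 window a κB-like GGNNTTTCC match lies 139 to 131 bases before the start, and the Maff window holds none of the motifs.

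The motifs searched on both strands were TGANTCA (the AP-1 site or TRE), TGACGTCA (the CRE), the CArG box of SRF, GCGNGGGCG (the EGR site) and TATAAA. TGACNTCA and TGACG, which both overlap the CRE, and GGNNTTTCC were added after the windows had been seen. Among 32851 promoters of the same length, 6.75% held TGANTCA, 1.55% TGACGTCA, 1.47% a CArG box, 4.7% GCGNGGGCG, 12.4% TATAAA, 7.49% TGACNTCA, 17.8% TGACG and 4.93% GGNNTTTCC. In the other windows, Fosb and Fosl2 each held GCGGGGGCG, an EGR-site match, and Fosb and Junb each held 1 TGACG. The Jund window held none, but the RefSeq starts used for Jund and Fosl2 lie 1210 and 671 bases from the start of the GENCODE gene.

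**Figure D1:**
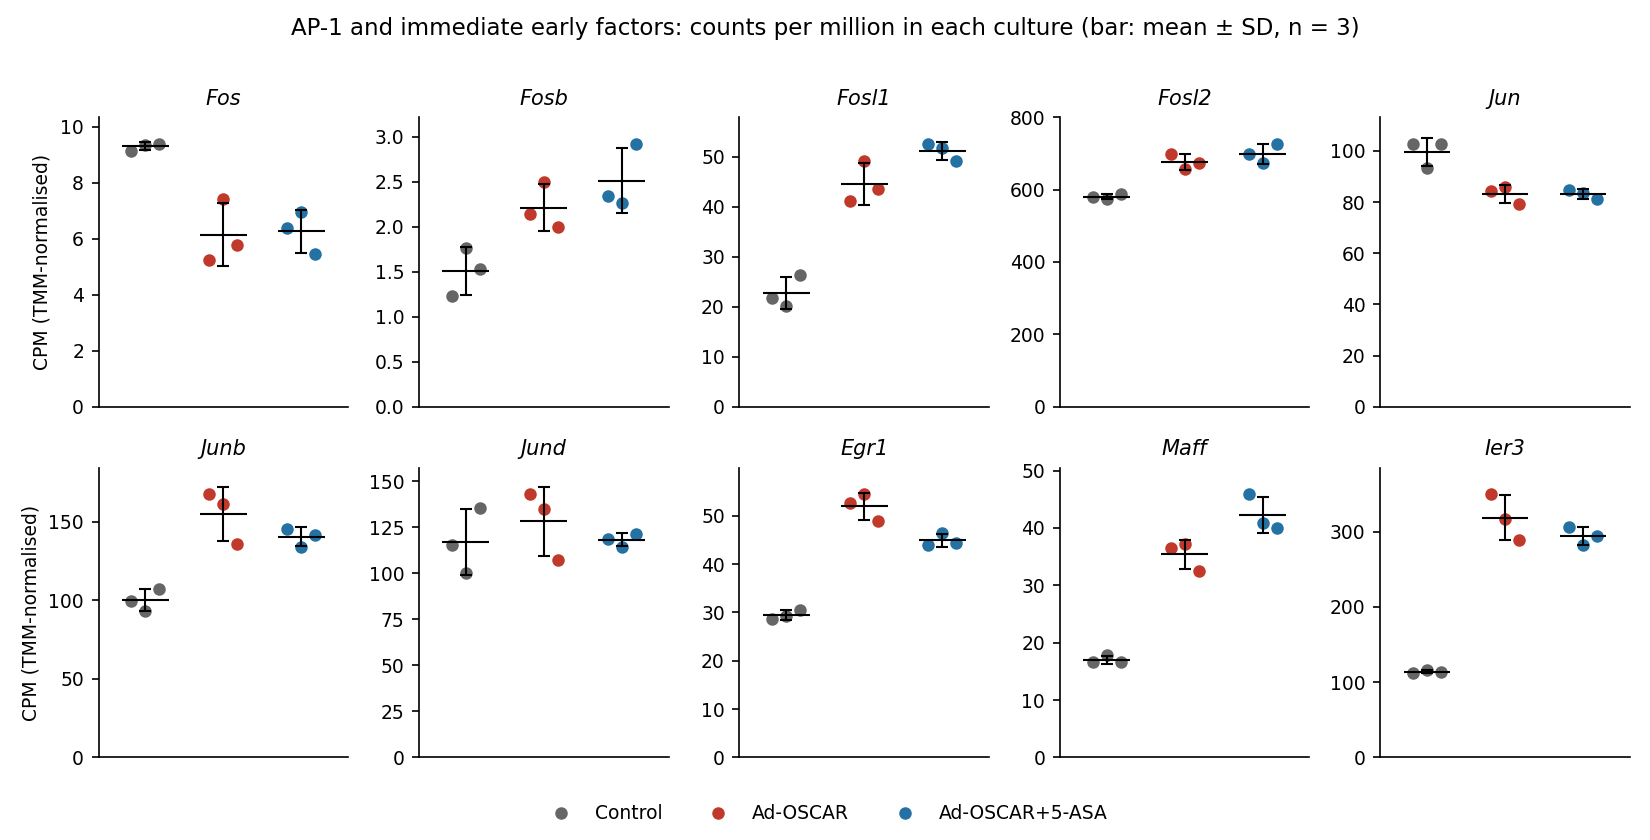
TMM-normalised CPM (linear axes from 0) of each gene in each culture, with the mean and SD of 3 cultures as horizontal bar and error bar. Ier3, Maff, Fosl1, Egr1 and Junb sit above every Control culture after OSCAR overexpression, Fos and Jun sit below, and Jund overlaps.

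OSCAR overexpression raised 7 of the 10 genes and lowered 2. Ier3 rose most, 2.80-fold, followed by Maff (2.08-fold), Fosl1 (1.97-fold), Egr1 (1.76-fold), Junb (1.55-fold), Fosb (1.45-fold) and Fosl2 (1.17-fold), whereas Fos was 1.52-fold and Jun 1.196-fold lower than in Control cultures. Jund did not pass the test. The changes were modest in size: none of the 10 passed the study's limits of an absolute log2 fold change above 1.5 with an adjusted p below 0.05, which 9.95% of all genes tested did, and Ier3 stood just short of that fold at 1.48. Genes were tested with edgeR (quasi-likelihood test, Benjamini-Hochberg adjustment over all 15362 genes), and an adjusted p below 0.05 was called a change. By this rule 65.0% of all genes were called in Ad-OSCAR against Control cultures, 32.7% higher and 32.2% lower, so that the 9 calls among 10 genes stand against a high background. The median log2 fold change was 0.59 for the 10 genes and 0.02 for all genes. The values of Ad-OSCAR and Control cultures did not overlap for 9 of the 10 genes, as for 69.0% of all genes.

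**Figure D2:**
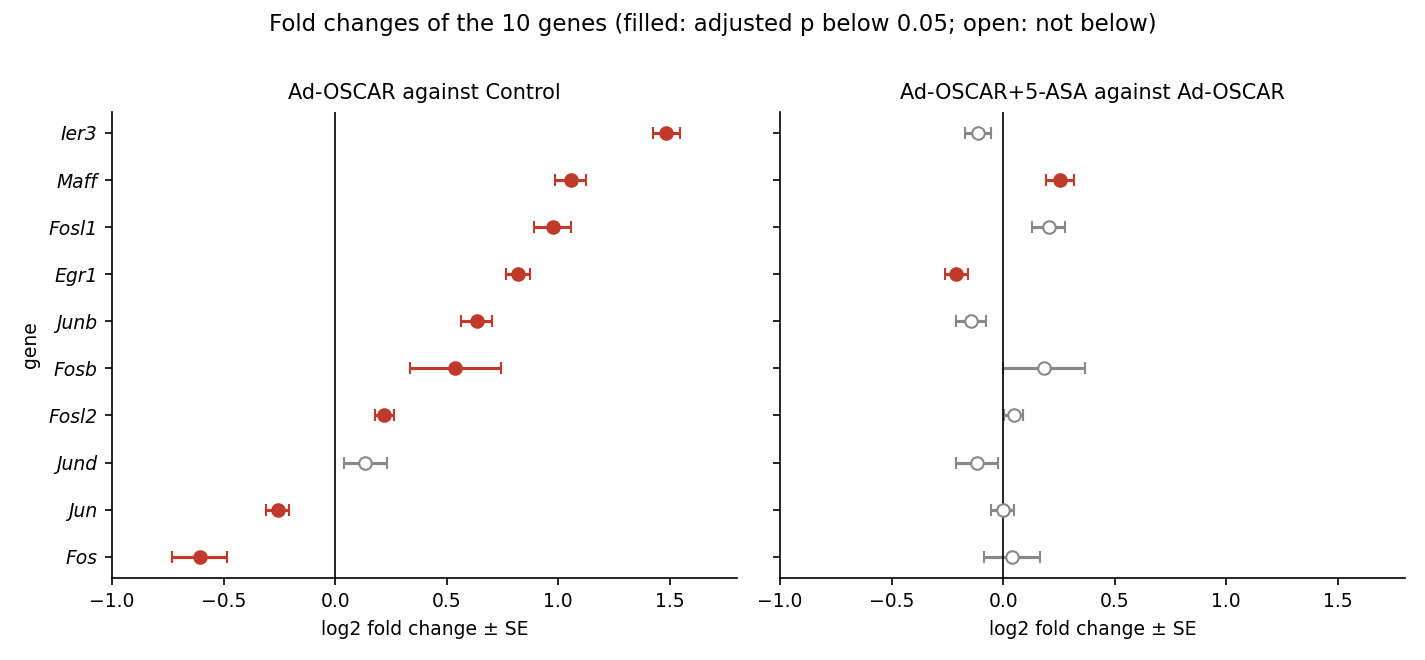
Log2 fold change with its standard error (edgeR, 3 cultures per group) for the 10 genes, in Ad-OSCAR against Control cultures and in Ad-OSCAR+5-ASA against Ad-OSCAR cultures, ordered by the first. The fold changes after OSCAR overexpression run from -0.61 for Fos to 1.48 for Ier3, whereas those after 5-ASA run from -0.21 for Egr1 to 0.26 for Maff.

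Among the FOS genes, the founding member Fos, whose product is the classical short-lived partner of JUN, was present at a low level and fell. Its level was 9.16, 9.37 and 9.41 CPM in Control cultures 1 to 3, 5.26, 7.42 and 5.78 CPM in Ad-OSCAR cultures, and 6.39, 6.97 and 5.45 CPM in treated cultures. All 6 Ad-OSCAR and treated cultures were below all Control cultures, and the Ad-OSCAR and treated groups overlapped. On the log2 scale, Ad-OSCAR differed from Control cultures by -0.61 ± 0.12 (SE, n = 3 per group, adjusted p = 0.000295, edgeR) and was called in all 17 alternative fits. Fos (ENSMUSG00000021250) lies on chromosome 12 at 85473890-85477273 (GRCm38, plus strand). These levels rest on 138 to 228 counts per culture.

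Fosb, which encodes an activating FOS protein and a shorter splice form, was the least abundant of the 10 genes, with 26 to 74 counts per culture. The Control cultures had 1.23, 1.77 and 1.53 CPM, the Ad-OSCAR cultures 2.14, 2.50 and 2.00 CPM, and the treated cultures 2.35, 2.26 and 2.92 CPM. The Ad-OSCAR and treated groups both lay above the Control group without overlap. The log2 fold change of 0.54 ± 0.20 after OSCAR overexpression (edgeR, adjusted p = 0.0274) was called in 11 of 17 alternatives, whereas the other 6 rises were called in all 17. The Fosb call was lost without Control culture 1 (0.41, adjusted p = 0.127), without Control culture 3 (0.54, adjusted p = 0.0534) and without Ad-OSCAR culture 2 (0.45, adjusted p = 0.0971), and with DESeq2, the tool named in the methods (0.53, adjusted p = 0.0627). On the TPM scale, which divides by transcript length, it was 0.34 and 0.18 with pseudocounts of 0.1 and 1 and was not called (limma, adjusted p = 0.197 and 0.19), while the effective length that RSEM used for Fosb varied 1.34-fold between cultures, from 2645 to 3545 bases. Fosb lies on chromosome 7 at 19302696-19310051 (minus strand).

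Fosl1, which encodes FRA-1, a FOS protein known to accumulate under sustained ERK signalling, rose after OSCAR overexpression. It stood at 21.8, 20.1 and 26.4 CPM in Control cultures, at 41.1, 49.2 and 43.5 CPM in Ad-OSCAR cultures and at 52.7, 51.8 and 49.2 CPM in treated cultures. The highest Control culture was well below the lowest Ad-OSCAR culture. Ad-OSCAR cultures exceeded Control cultures by 0.97 ± 0.08 on the log2 scale (edgeR, adjusted p = 6.83e-09), and the difference was 1.18 ± 0.08 in treated against Control cultures. Fosl1 (chromosome 19 at 5447547-5455946, plus strand) overlaps the oppositely oriented Ccdc85b, and whether reads were counted by strand is not given in the sources used here. Ccdc85b differed by 0.07 on the log2 scale between Ad-OSCAR and Control cultures (edgeR, adjusted p = 0.461).

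Fosl2, which encodes FRA-2, a factor expressed in cartilage and bone, was the most abundant FOS gene and moved little. The Control cultures had 579, 575 and 587 CPM, the Ad-OSCAR cultures 699.8, 656 and 673 CPM, and the treated cultures 698, 673 and 728 CPM. The spread inside groups was narrow, so that the rise of 0.22 ± 0.04 on the log2 scale was called (edgeR, adjusted p = 0.000178) although 67.3% of all genes had a larger absolute change. The gene lies on chromosome 5 at 32135801-32157842 (plus strand).

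Among the JUN genes, Jun, whose product is the classical target of the JNK kinases, fell slightly. Its Control cultures had 103, 93.4 and 103 CPM, its Ad-OSCAR cultures 84.5, 86.0 and 79.3 CPM and its treated cultures 84.6, 83.6 and 81.1 CPM. Every Ad-OSCAR and treated culture was below every Control culture. The log2 fold change was -0.26 ± 0.05 in both Ad-OSCAR and treated cultures against Control cultures (edgeR, adjusted p = 0.000244 and 0.000242). Jun (chromosome 4 at 95049034-95052222, minus strand) overlaps the antisense RNA Junos, which had 19 to 39 counts against 1941 to 2491 for Jun.

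Junb, whose product often opposes JUN on its targets, rose. It had 99.7, 92.9 and 107 CPM in Control cultures, 167, 161 and 136 CPM in Ad-OSCAR cultures and 145, 134 and 142 CPM in treated cultures. All Ad-OSCAR and treated cultures exceeded all Control cultures, and Ad-OSCAR culture 3 was the lowest of its group. Junb rose by 0.63 ± 0.07 on the log2 scale (edgeR, adjusted p = 2.46e-07), and in the 17 alternatives it ranged from 0.58 to 0.73. Junb (chromosome 8 at 84974484-84978718, minus strand) overlaps Prdx2 on the other strand, which fell by 0.18 on the log2 scale (edgeR, adjusted p = 0.00557) while Junb rose.

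Jund, a steadily expressed JUN linked to growth arrest, showed no change beyond the spread. Control cultures had 115, 100.1 and 135 CPM, Ad-OSCAR cultures 143, 135 and 107 CPM, and treated cultures 119, 114 and 121 CPM. The Control and Ad-OSCAR groups overlapped and had coefficients of variation of 15.1% and 14.7%. The difference was 0.13 ± 0.10 on the log2 scale (edgeR, adjusted p = 0.226), but it was called without Ad-OSCAR culture 3 (0.25, adjusted p = 0.0169), without Control culture 3 (0.25, adjusted p = 0.0281) and with no filter on low counts (0.14, adjusted p = 0.0265). Jund (chromosome 8 at 70698949-70700616, plus strand) overlaps the antisense RNA Gm11175, which had 192 counts in Ad-OSCAR culture 1 and no more than 9 in any other culture.

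Egr1, a zinc-finger factor induced through SRF and ELK proteins, was higher in all Ad-OSCAR and treated cultures than in Control cultures. The Control cultures had 28.6, 29.3 and 30.4 CPM, the Ad-OSCAR cultures 52.6, 54.5 and 48.9 CPM and the treated cultures 43.9, 46.4 and 44.4 CPM. The 3 groups did not overlap, with the treated cultures between the others. The log2 fold change after OSCAR overexpression was 0.82 ± 0.05 (edgeR, adjusted p = 2.10e-10). Egr1 lies on chromosome 18 at 34859823-34864984 (plus strand), and no other annotated gene overlaps it.

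Maff encodes a small MAF protein that lacks an activating domain of its own and pairs with CNC factors such as NRF2. The gene rose in the Ad-OSCAR and treated groups. It had 16.6, 17.8 and 16.65 CPM in Control cultures, 36.5, 37.15 and 32.6 CPM in Ad-OSCAR cultures and 45.9, 40.8 and 40.04 CPM in treated cultures. The 3 groups did not overlap, and the treated cultures were the highest. On the log2 scale the difference was 1.06 ± 0.07 in Ad-OSCAR against Control cultures (edgeR, adjusted p = 2.62e-10) and 1.31 ± 0.07 in treated against Control cultures. Maff lies on chromosome 15 at 79346621-79359076 (plus strand).

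Ier3 encodes a short protein that is not a DNA-binding factor and is known for acting on cell survival and ERK signalling. Its Control cultures had 112, 116 and 113 CPM, its Ad-OSCAR cultures 349.7, 316 and 289 CPM, and its treated cultures 307, 283 and 294 CPM. The lowest of the Ad-OSCAR and treated cultures was well above the highest Control culture. The log2 fold change of 1.48 ± 0.06 (edgeR, adjusted p = 1.56e-13) was exceeded in absolute size by 10.2% of all genes tested. It ranged from 1.42 to 1.55 over the 17 alternatives, and passed the study's limit of 1.5 without Ad-OSCAR culture 3 (1.55) and on the TPM scale with a pseudocount of 0.1 (1.502). Ier3 lies on chromosome 17 at 35821684-35822923 (plus strand).

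**Figure D3:**
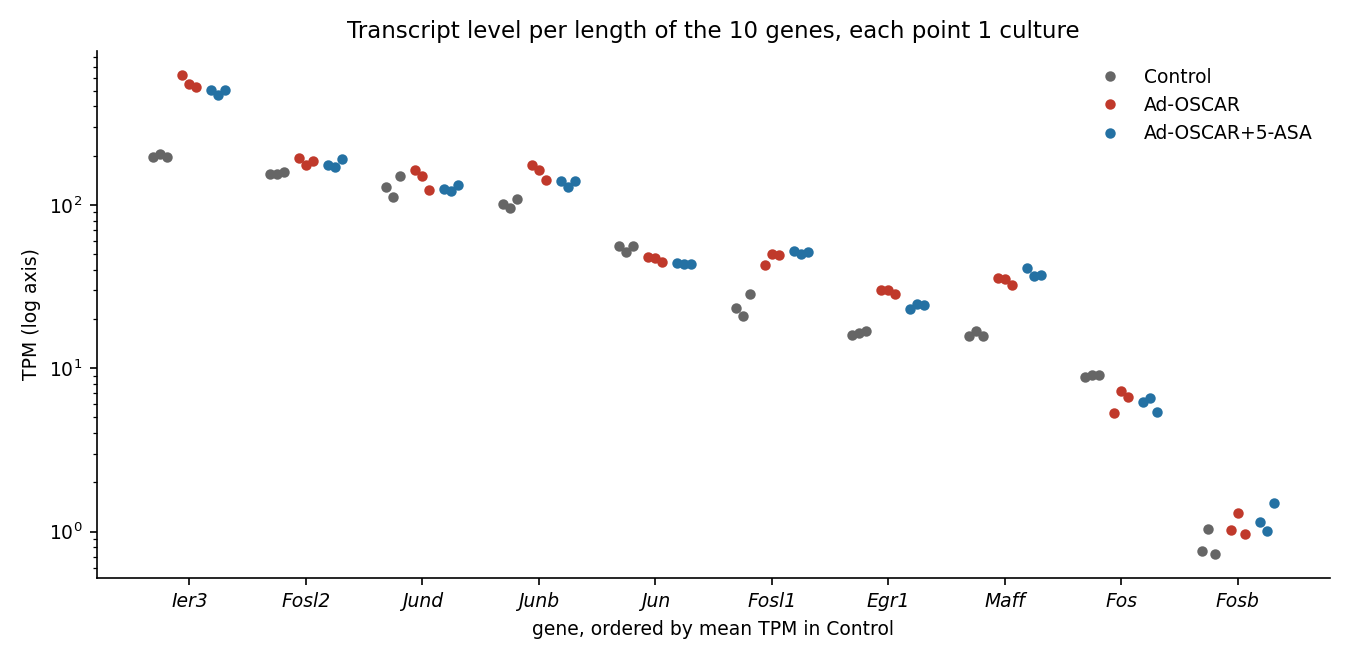
TPM (transcript level scaled to length and library, log axis) of the 10 genes in each culture, ordered by the mean of the Control cultures. Ier3 stands highest in every group and Fosb lowest, at 469.6 to 625 TPM and 0.96 to 1.49 TPM in the Ad-OSCAR and treated cultures.

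Levels of different genes can be set side by side only per transcript length, for which the deposited TPM were used. In Control cultures the order of mean TPM was Ier3 (199.7 ± 4.81, SD, n = 3), Fosl2 (155 ± 2.14), Jund (130.3 ± 19.2), Junb (102 ± 6.69), Jun (54.7 ± 2.67), Fosl1 (24.2 ± 3.76), Egr1 (16.4 ± 0.458), Maff (16.1 ± 0.652), Fos (9.01 ± 0.194) and Fosb (0.843 ± 0.171). Of neighbours in this order, only Egr1 and Maff overlapped. In Ad-OSCAR cultures Junb (160.4 ± 16.3) passed Jund (145 ± 20.3), with overlapping values, Fosl1 (47.5 ± 3.95) reached Jun (46.6 ± 1.47), also with overlapping values, and Maff (34.4 ± 2.01) stood above Egr1 (29.6 ± 1.152) without overlap. In treated cultures Junb (129 to 141 TPM) and Jund (121 to 132 TPM) still overlapped, and Fosl1 (50.3 to 52.5 TPM) stood above Jun (43.3 to 43.8 TPM). By mean TPM, Ier3 had rank 662 of all genes listed in Control cultures and rank 197 in Ad-OSCAR cultures. Fos had ranks 8990 and 9878.

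**Figure D4:**
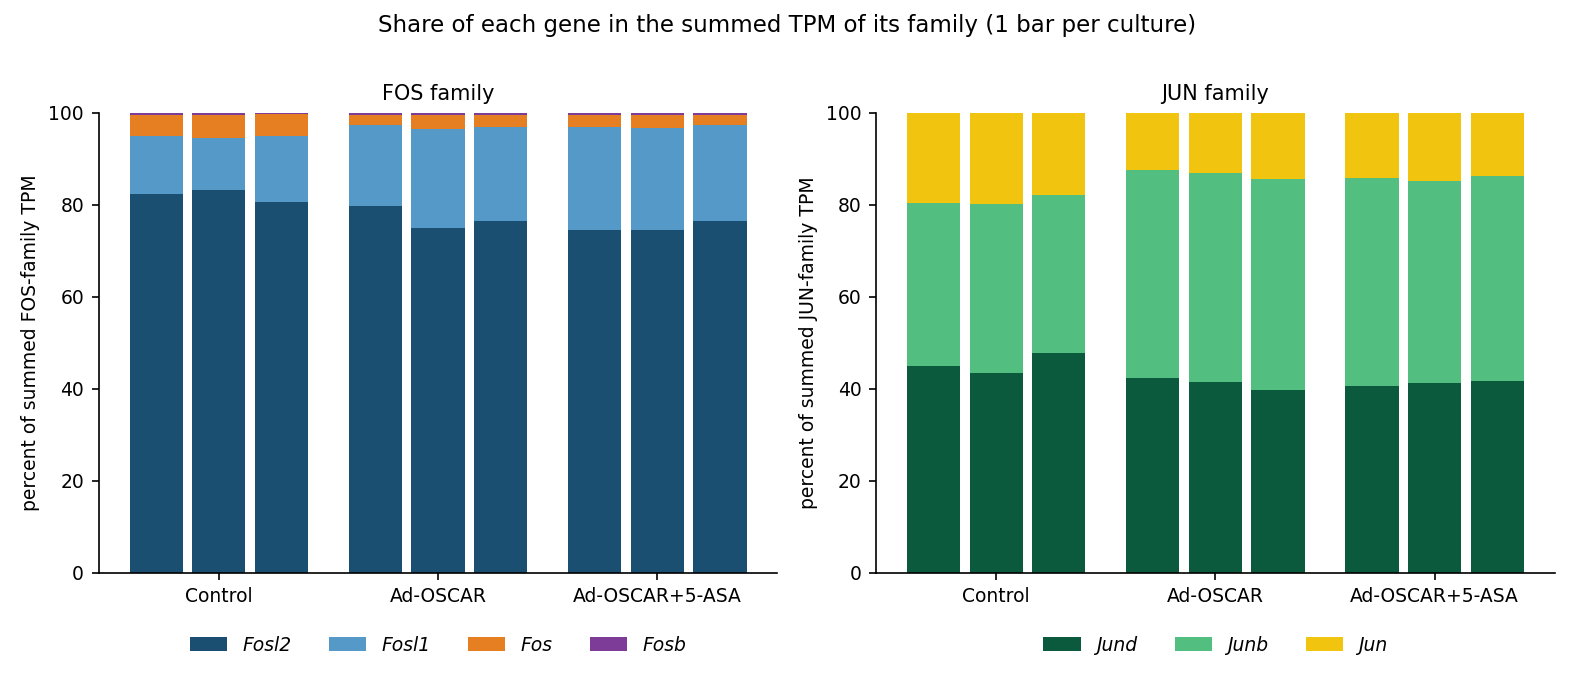
Share of each gene in the summed TPM of the FOS family (Fos, Fosb, Fosl1, Fosl2) and of the JUN family (Jun, Junb, Jund), with 1 stacked bar per culture. Fosl2 makes up 74.5% to 83.2% of the FOS sum in all cultures, and Junb takes 45.3% to 45.9% of the JUN sum in Ad-OSCAR cultures against 34.4% to 36.7% in Control cultures.

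The composition of both families shifted after OSCAR overexpression, described here without a test. Of the summed FOS-family TPM, Fosl1 made up 11.3% to 14.4% in Control, 17.8% to 21.4% in Ad-OSCAR and 20.8% to 22.4% in treated cultures. Fosl2 went from 80.5% to 83.2% in Control cultures to between 74.9% and 79.6% in Ad-OSCAR cultures, and Fos from 4.65% to 4.94% to between 2.21% and 3.07%. The groups of Control and Ad-OSCAR cultures did not overlap for any of these 3 genes. Of the summed JUN-family TPM, Jun made up 17.8% to 19.9% in Control and 12.4% to 14.5% in Ad-OSCAR cultures, and Jund 43.3% to 47.8% and 39.6% to 42.3%. Junb took the largest JUN share in Ad-OSCAR cultures, whereas Jund did in Control cultures. The summed TPM of the FOS family was 185 to 196 in Control, 234 to 242 in Ad-OSCAR and 227 to 248 in treated cultures, and that of the JUN family 259 to 315, 311 to 385 and 293 to 316.

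Against untreated Ad-OSCAR cultures, 2 of the 10 genes differed after 5-ASA, with Maff higher and Egr1 lower, while 17.8% of all genes were called (10.4% higher and 7.38% lower). For the drug the methods set a fold above 1.5 in either direction with an unadjusted p below 0.05, in treated against Control cultures. Applied here to treated against untreated Ad-OSCAR cultures, none of the 10 passed these limits, which 4.15% of all genes did. Treated and untreated Ad-OSCAR cultures did not overlap for 3 of the 10 genes (Fosl1, Egr1 and Maff), as for 33.8% of all genes. The median log2 fold change was 0.02 for the 10 genes and -0.00442 for all genes. Oscar itself fell by 0.97 on the log2 scale between these groups (edgeR, adjusted p = 1.76e-08), and the part of this difference in the results for the drug was not tested.

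Egr1 fell by 0.21 on the log2 scale with 5-ASA (SE 0.05, edgeR, adjusted p = 0.00744), to a level still above that of Control cultures by 0.61 ± 0.05. It was called in all 17 alternatives, from -0.30 to -0.18. Maff rose by a further 0.26 ± 0.06 (edgeR, adjusted p = 0.00781). Its rise was called in 13 of 17 alternatives, and the call was lost without treated culture 1 (0.19, adjusted p = 0.0687), without Ad-OSCAR culture 3 (0.19, adjusted p = 0.0541) and on the TPM scale (0.15 with either pseudocount, limma, adjusted p = 0.161 and 0.164). On that scale, which has no TMM step, the median of all genes was -0.0802 with a pseudocount of 1 and -0.0972 with 0.1, and relative to it Maff was 0.23 and 0.25 higher.

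The other 8 genes did not pass the test with 5-ASA. Fosl1 came nearest, with 0.20 ± 0.07 (edgeR, adjusted p = 0.0674), no overlap between the groups, and a call in 5 of 17 alternatives, namely with no filter on low counts (0.20, adjusted p = 0.00645), with only the 2 groups compared (0.20, adjusted p = 0.0368), without Ad-OSCAR culture 2 (0.28, adjusted p = 0.0216), without Control culture 2 (0.20, adjusted p = 0.0445) and without Control culture 3 (0.20, adjusted p = 0.0293). Junb, Jund and Ier3 had values of -0.14 ± 0.07, -0.12 ± 0.09 and -0.11 ± 0.06 (edgeR, adjusted p = 0.167, 0.446 and 0.197). Fos (0.04 ± 0.13), Fosb (0.18 ± 0.18), Fosl2 (0.05 ± 0.04) and Jun (-0.00251 ± 0.05) had values below or near their standard errors (edgeR, adjusted p from 0.496 to 0.984).

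One Ad-OSCAR culture bears on the comparison with the drug. Ad-OSCAR culture 3 was the lowest of its group for Fosb, Jun, Junb, Jund, Egr1, Maff and Ier3. Without it, 3 of the 10 genes were called with 5-ASA, all lower: Egr1 (-0.25, edgeR, adjusted p = 0.00335), Junb (-0.23, adjusted p = 0.0142) and Ier3 (-0.18, adjusted p = 0.0343).

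Set beside Control cultures, treated cultures had the same 7 genes higher, the same 2 lower and Jund not called, where 63.2% of all genes were called, 31.4% higher and 31.8% lower. In this comparison 5 of the 10 genes (Ier3, Maff, Fosl1, Fosb and Egr1) passed the methods' limits for the drug, as did 29.9% of all genes, with Egr1 just above the fold limit at 1.53-fold. The paper reports far fewer genes past its limits in the same comparison, and the reason for the difference was not tested. Treated cultures also received the Oscar virus, so that a fold against Control cultures is not that of the drug alone. The comparison of treated with Control cultures shares its Control cultures with the comparison of Ad-OSCAR. The values did not overlap for 9 of the 10 genes, as for 66.6% of all genes. The log2 fold changes of treated against Control cultures were 1.37 for Ier3, 1.31 for Maff, 1.18 for Fosl1, 0.72 for Fosb, 0.61 for Egr1, 0.49 for Junb, 0.27 for Fosl2, 0.02 for Jund, -0.26 for Jun and -0.57 for Fos. Those of Ad-OSCAR against Control cultures were 1.48, 1.06, 0.97, 0.54, 0.82, 0.63, 0.22, 0.13, -0.26 and -0.61 in the same order. The median was 0.55 for the 10 genes and 0.01 for all genes.

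**Figure D5:**
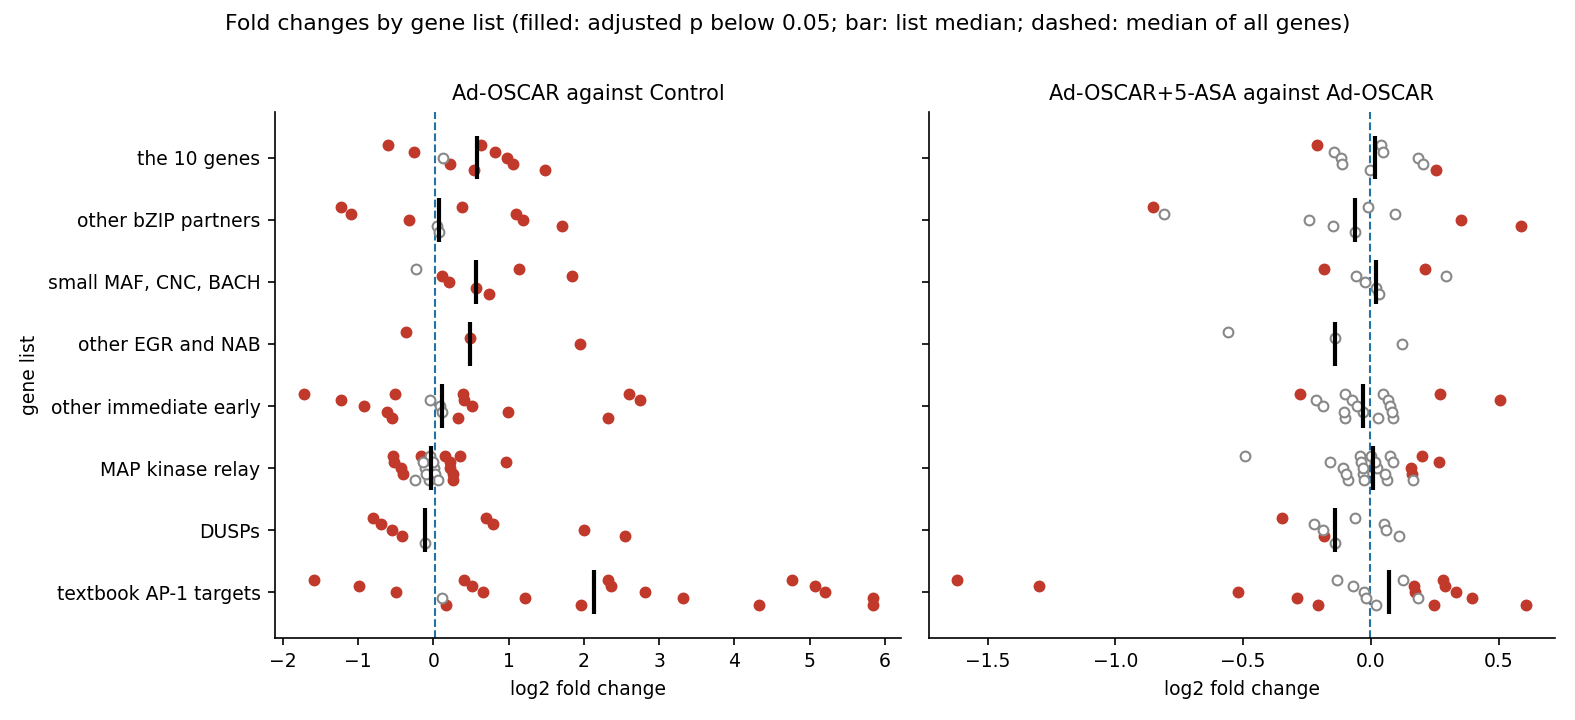
Log2 fold change of every tested gene of the 10 genes and of 7 related lists, in Ad-OSCAR against Control cultures and in Ad-OSCAR+5-ASA against Ad-OSCAR cultures, 1 point per gene, filled where the adjusted p was below 0.05. The AP-1 targets spread from -1.58 to 5.84 after OSCAR overexpression and from -1.62 to 0.61 after 5-ASA, and the 10 genes from -0.61 to 1.48 and from -0.21 to 0.26.

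Other genes of the same pathways were taken from fixed lists. Among all genes, 32.7% rose and 32.2% fell after OSCAR overexpression, and 10.4% rose and 7.38% fell with 5-ASA. The counts of each list below are to be read beside these shares. Of the other bZIP partners of FOS and JUN, 4 of 9 tested rose after OSCAR overexpression and 3 fell. Atf3, a stress-induced factor that pairs with JUN, rose by 1.71 ± 0.10 on the log2 scale (edgeR, adjusted p = 3.93e-11) and fell by 0.85 ± 0.09 with 5-ASA (adjusted p = 2.57e-06). Batf, a FOS-like factor without an activating domain, rose by 1.195 ± 0.12 (edgeR, adjusted p = 5.20e-08), and Maf fell by 1.22 ± 0.05 (adjusted p = 5.73e-13). Jdp2, a repressor that pairs with JUN, rose by 0.59 ± 0.07 with 5-ASA (edgeR, adjusted p = 2.15e-05), as did Maf by 0.35 ± 0.05 (adjusted p = 0.000141).

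Small MAF proteins bind DNA with CNC or BACH partners. Beside Maff, 6 of 7 tested genes of this group rose after OSCAR overexpression and Bach2 did not pass the test (-0.23, edgeR, adjusted p = 0.291), and their median was 0.57 on the log2 scale. Nfe2l2, which encodes NRF2, the main regulator of antioxidant genes, rose by 1.13 ± 0.04, Mafg by 0.74 ± 0.05 and the repressor Bach1 by 0.57 ± 0.05 (edgeR, adjusted p = 1.20e-13, 3.10e-10 and 5.62e-09). With 5-ASA Nfe2l1 rose by 0.21 ± 0.04 and Nfe2l2 fell by 0.18 ± 0.04 (edgeR, adjusted p = 0.0016 and 0.00623).

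Beside Egr1, the related Egr2 rose by 1.95 ± 0.31 on the log2 scale, from 0.325 ± 0.00721 to 1.28 ± 0.205 CPM (SD, n = 3; edgeR, adjusted p = 2.34e-05). Nab1, which encodes a corepressor of EGR factors, rose by 0.49 ± 0.05, and the corepressor gene Nab2 fell by 0.37 ± 0.06 (edgeR, adjusted p = 1.16e-07 and 1.75e-05). With 5-ASA, Egr2 differed by -0.56 ± 0.25, Nab1 by -0.14 ± 0.05 and Nab2 by 0.12 ± 0.06, and none passed the test (edgeR, adjusted p = 0.139, 0.065 and 0.157).

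Of 17 other immediate early genes tested, 8 rose, 6 fell and 3 were not called after OSCAR overexpression, with a median of 0.12. The largest rises were those of the orphan nuclear receptors Nr4a2 (2.75 ± 0.06), Nr4a3 (2.61 ± 0.15) and Nr4a1 (2.32 ± 0.09; edgeR, adjusted p = 1.87e-17, 4.28e-11 and 9.29e-14), all larger in log2 fold change than that of Ier3. With 5-ASA, Myc, a growth regulator, rose by 0.51 ± 0.06 and Klf4 by 0.27 ± 0.05, and the antiproliferative gene Btg2 fell by 0.28 ± 0.05 (edgeR, adjusted p = 1.22e-05, 0.000594 and 0.000757).

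The MAP kinase relay leads from receptors to these genes. Of 22 genes for MAP kinases, their activators and the factors they act on, 7 rose, 5 fell and 10 were not called, with a median of -0.03. Map3k8, a kinase that activates the ERK pathway, rose by 0.96 ± 0.08, while Srf fell by 0.53 ± 0.06 and Braf by 0.52 ± 0.05 (edgeR, adjusted p = 4.54e-09, 9.04e-07 and 1.38e-08). With 5-ASA 4 of these 22 rose and none fell, a share near the 17.8% of all genes called. They were Mapk8, which encodes JNK1 (0.27 ± 0.05), Elk3 (0.20 ± 0.05), Braf (0.16 ± 0.05) and Map2k1 (0.16 ± 0.05; edgeR, adjusted p = 0.000771, 0.0141, 0.0199 and 0.0344). Of 9 dual-specificity phosphatases, which switch MAP kinases off, 4 rose and 4 fell after OSCAR overexpression. Dusp6, specific for ERK, rose by 2.54 ± 0.05 and fell by 0.35 ± 0.05 with 5-ASA, and Dusp4 rose by 2.00 ± 0.19, whereas Dusp5 fell by 0.81 ± 0.18 (edgeR, adjusted p = 2.62e-17, 3.94e-05, 4.33e-08 and 0.000755). Dusp16 also fell with 5-ASA, by 0.18 ± 0.05 (edgeR, adjusted p = 0.0239), and the other 7 phosphatases were not called.

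Textbook AP-1 targets include matrix-degrading enzymes and cytokines. Of 20 tested, 16 rose, 3 fell and 1 was not called after OSCAR overexpression, with a median log2 fold change of 2.14 beside 0.02 for all genes. The cytokine gene Lif rose 57.2-fold (9.21 ± 1.12 to 528 ± 18.0 CPM, SD, n = 3), the stromelysin gene Mmp10 57.1-fold (0.453 ± 0.233 to 26.8 ± 2.96 CPM) and Ptgs2, which encodes COX-2, 36.9-fold (53.6 ± 6.89 to 1977 ± 142 CPM), with adjusted p values of 1.52e-20, 3.09e-15 and 3.55e-19 by edgeR. The collagenase and stromelysin genes Mmp13 (1.21 ± 0.04) and Mmp3 (2.36 ± 0.05), chosen after their values were seen, rose as well, on the log2 scale (edgeR, adjusted p = 3.57e-14 and 2.24e-17). Those that fell were Ccnd1, Plau and Plaur. With 5-ASA the list divided, with 8 higher, 5 lower and 7 not called, and a median of 0.07. Mmp10 fell by 1.62 ± 0.10 and Mmp12 by 1.3 ± 0.08, and Mmp9 rose by 0.61 ± 0.10 on the log2 scale (edgeR, adjusted p = 1.34e-08, 1.35e-08 and 0.000404).

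Among 8 heat shock genes, listed as markers of cell stress, 2 rose, 3 fell and 3 were not called after OSCAR overexpression. Hspb8 rose by 0.57 ± 0.06 and Hsph1 by 0.39 ± 0.04, and Hspa8 fell by 0.46 ± 0.04, Hsp90aa1 by 0.41 ± 0.05 and Hspb1 by 0.27 ± 0.10 on the log2 scale (edgeR, adjusted p = 9.42e-08, 1.85e-07, 2.72e-08, 2.19e-06 and 0.0201). With 5-ASA, Hspa1b, Hspa1a and Dnajb1 fell by 0.50, 0.45 and 0.17 (edgeR, adjusted p = 0.00165, 0.0459 and 0.0243). Markers of other cells also moved: of 10 chondrocyte markers all 10 fell, with a median of -4.81, 2 of 8 fibroblast markers rose and 6 fell, and the 3 of 4 tested leukocyte and macrophage markers and both tested endothelial markers (Tek and Vwf) that were called were higher in Ad-OSCAR cultures. With 5-ASA, 5 of 10 chondrocyte and 6 of 8 fibroblast markers rose, and Cd68, Cd14, Tek and Vwf fell.

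The genes whose log2 CPM followed that of Ier3 most closely over the 9 cultures were Kifc2 (Pearson's r = 0.998), Dnaja4, Slc25a25, Mllt6 and Cc2d2a (r = 0.997 each), and those closest to Maff were Ebf4 (r = 0.997), Sod3 (0.996), Spry4 (0.995), Ifnar2 (0.995) and Camp (0.994). These are descriptions, since the 9 cultures share 3 groups. Mean levels of Slc25a25 were 16.9, 55.0 and 50.8 CPM in Control, Ad-OSCAR and treated cultures, and those of Sod3, which encodes an extracellular superoxide dismutase, 725, 1667 and 2069 CPM.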

How the data were processed

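The authors deposited, for each of 9 cultures, RSEM tables with expected counts, TPM and FPKM per gene. According to the methods, they trimmed stranded 2 × 100 base reads with BBDuk, aligned them to GRCm38 with STAR 2.7.1a and counted them with RSEM 1.3.1, which divides reads that match several transcripts; for TPM the study's reporting summary names another RSEM version and a Gencode release numbered like those for human, so that the mouse annotation remains unclear, and the strand setting is not given in the sources used here. Of 55471 identifiers, 55144 were found in GENCODE M21, which gave symbols and coordinates. The deposited expected counts (19733448 to 28192740 per culture) were rounded. R 4.3.3 and edgeR 4.0.16 were used with TMM, filterByExpr (15362 genes) and the non-robust quasi-likelihood test, fitting the 3 groups together. Standard errors are log2 fold changes over the root of F. The deposited TPM served for levels between genes and, with limma 3.58.1 on log2(TPM + 1) and log2(TPM + 0.1), as alternatives; a fold change on that scale understates that of low genes. FPKM as deposited served for the shares only. DESeq2 1.42.0 was a further alternative.

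The members and lists were chosen with earlier results of these data known. From the list of AP-1 targets 1 gene is not reported here and was left out of its counts and medians. From each list other than the cell type markers, genes were named for Ad-OSCAR against Control cultures and for treated against Ad-OSCAR cultures. They were the 3 called genes with the largest change, at least 1 CPM and no overlap between groups, and all called genes where a list had 5 or fewer. For Ier3 and Maff, the 5 genes with the highest correlation were named. Replicate numbers were not used to pair the cultures in the main fit. In simulated counts for Ad-OSCAR against Control, 200 genes were changed, in the Ad-OSCAR cultures only. Of 65 genes changed by 0.5 on the log2 scale 70.8% were called, and 5 of 14946 unchanged genes. In the data 65.0% of all genes were called, so that these rates do not carry over to them. Tables were made with pandas 2.3.3 in Python 3.11.15 and figures with matplotlib 3.10.9.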

Additional observations from a re-analysis of the deposited data

How the results depend on the processing

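The number of the 10 genes called in Ad-OSCAR against Control cultures was 8 to 10 over all 17 alternatives, and in treated against Control cultures 8 or 9. With 5-ASA it was 2, but 1 with limma on either TPM scale, 3 with no filter on low counts and with only the 2 groups compared, and 1 to 3 with a culture left out. The count past the methods' limits for the drug in treated against Control cultures, added after seeing the data, was 5, but 3 with limma on either TPM scale, and 5 to 6 with a culture left out. None passed the study's limits after OSCAR overexpression, except that Ier3 did with limma on log2(TPM + 0.1) (a count of 1) and without Ad-OSCAR culture 3, so that the count ranged from 0 to 1 with a culture left out. With the replicate block, 9, 2 and 9 of the 10 genes were called in the 3 comparisons (9884, 2499 and 9555 of all genes), and no call among the 10 changed. The correlations of deviations from the group means ranged from -0.0723 to 0.0396 for same-numbered cultures and from -0.0544 to 0.0827 for others. These values do not show that the numbers pair the cultures, and a shared preparation was not tested.

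Directions turned only where the main value was not called. With 5-ASA, Fos was -0.0773 and -0.0683 with limma on log2(TPM + 0.1) and log2(TPM + 1) and ranged from -0.0703 to 0.184 with a culture left out, Fosl2 was -0.0513 and -0.0510, and Jun was 0.00150 with DESeq2, 0.00143 with RLE and ranged from -0.0399 to 0.0187 with a culture left out. In treated against Control cultures, Jund was -0.0404 and -0.0402 with limma on these scales and ranged from -0.0873 to 0.132 with a culture left out. On these TPM scales the median of all genes moved from -0.00442 to -0.0972 and -0.0802 with 5-ASA and from 0.01 to -0.0623 and -0.0519 in treated against Control cultures. Relative to it Fos (0.0199 and 0.0119), Fosl2 (0.0459 and 0.0292) and Jund (0.0218 and 0.0117) did not turn. The causes of the other turns were not tested. Of the fold changes recomputed for the 10 genes, 472 kept their direction and their side of the threshold, 12 lost their call, 10 gained one and 16 turned.

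Shares computed from TMM-normalised counts, which do not divide by length and so favour long transcripts, were in Control, Ad-OSCAR and treated cultures 1.52%, 0.846% and 0.828% for Fos, 0.246%, 0.304% and 0.330% for Fosb, 3.70%, 6.12% and 6.76% for Fosl1, 94.5%, 92.7% and 92.1% for Fosl2, 31.6%, 22.9% and 24.4% for Jun, 31.6%, 42.3% and 41.1% for Junb, and 36.8%, 34.9% and 34.6% for Jund. FPKM gives the same shares as TPM by construction. Fosb had 26 to 74 counts per culture, and depth was not varied.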
